A study of Homo sapiens with 12 samples.

Results

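The 5-FU response of wild-type HCT116 cells was taken from 5 of the 12 libraries of the series, 2 of *WT* cells treated with 5-FU (replicates 2 and 3) and 3 of *WT* cells treated with DMSO. HCT116 cells are an established line from a human colorectal cancer and have functional p53. The *WT* cells had been transfected with the empty Cas9-GFP vector and grown from single cells, and they were exposed to 4 µM 5-FU or to DMSO for 48 h. The study's methods call the 3 replicates per state biological, and whether each is another clone is not given in the sources used here. The other libraries hold *miR-34a/b/c-KO* cells, grown from single cells after deletion of the miR-34a and miR-34b/c loci, with 3 for DMSO and 3 for 5-FU under the same conditions, and a library labelled as replicate 1 of *WT* cells with 5-FU, whose counts differed from those of DMSO replicate 3 in 0 of 60580 genes and which was left out.

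5-FU (5-fluorouracil) is a pyrimidine analog. Cells convert it to a nucleotide that blocks thymidylate synthase, and fluorinated nucleotides also enter RNA and DNA. The resulting damage stabilizes p53, a transcription factor that induces genes of cell cycle arrest, DNA repair and cell death. Through p21, the CDK inhibitor encoded by *CDKN1A*, p53 also leads to repression of cell cycle genes by the DREAM complex, which binds E2F and CHR elements in their promoters.

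Total counts were 23747699 to 35249026 in the DMSO libraries and 29236075 to 39064210 in the 5-FU libraries. Levels are given as CPM, the gene's share of all counts of a library after scaling by the upper quartile, in units of 1e-06. Between libraries of the same state, log2 CPM differed with an SD of 0.353 to 0.401 over 16123 genes, and between states with an SD of 0.818 to 0.897. The 8 epithelial markers, among them *EPCAM*, *CDH1* and *KRT8*, were each at 121 CPM or more in every library. Of 20 markers of other cell types, 15 were at 1 CPM or less in every library, and none was at 0 in all of them. The summed level of these 20 was 50.5 to 52.1 CPM with DMSO and 101 to 118 CPM with 5-FU, mostly from *COL1A1* and *CD68*, and the part of other cells in any result was not tested.

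Both 5-FU libraries differed from the DMSO libraries in their relation to transcript GC content, and replicate 2 did so more than replicate 3. Among protein-coding genes above 3 CPM, the median log2 difference of the GC-richest quintile exceeded that of the GC-poorest by 0.72 to 0.76 in 5-FU replicate 2 against each DMSO library, and by 0.20 to 0.24 in 5-FU replicate 3. The gap between DMSO libraries was 0.03 to 0.05. Counts of called genes in each list were therefore also computed without either 5-FU library and with the GC trend of each library removed. These values stand beside a count of 4 or more where they changed it by more than 1.5 times.

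Of 16123 genes tested, 2978 were called higher and 1512 lower after 5-FU (edgeR quasi-likelihood test, FDR < 0.05 and fold change > 1.5), which is 18.5% and 9.38% of all genes. More than 2-fold changes were found for 1780 of the genes called higher and 413 of those called lower, and more than 8-fold changes for 292 and 16. A gene near 0 with DMSO could pass the filter on low counts through 5-FU alone. With 20 counts required in every library, 1910 genes were called higher and 1349 lower, of which 795 and 289 changed more than 2-fold and 34 and 1 more than 8-fold. The libraries of both states did not overlap for 2956 of the genes called higher and 1500 of those called lower. This follows largely from the limits of the call and is no further support. Genes not called, such as *TYMS* and *NFKBIA*, also had no overlap, and the share over all genes was not counted. The median log2 fold change of all genes was 0.03. The summed level of the genes called higher was 71457 CPM with DMSO and 150974 CPM with 5-FU, and that of the genes called lower 141854 and 78555 CPM. The study's methods ran RUVg before DESeq2, with settings not given in the sources used here. With 1 RUVg factor in edgeR, 3 genes were called higher and 0 lower, while 2737 genes had an unadjusted p below 0.05. Its 11123 control genes were those left after the 5000 with the lowest p-values across states. In the main fit 5143 genes were higher at FDR < 0.05 without a fold limit, so that the controls held genes that responded to 5-FU.

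The genes were grouped in 33 lists by their roles. The count of each list is to be read against the shares of all genes tested, 18.5% higher and 9.38% lower. Of the Wnt targets, 20% were called higher, near the share of all genes. The plot of called members by list shows the p53 feedback and arrest list at the top and the mitosis and replication lists at the bottom.

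Genes of p53 feedback and cell cycle arrest rose. Of 26 members tested, 23 were called higher and 1 lower, with a median log2 fold change of 2.14. *CDKN1A* was at 167, 166 and 168 CPM in the DMSO libraries and at 2179 and 1977 CPM in the 5-FU libraries. Its states were thus far apart compared with their spread (167 ± 1.18 CPM, SD, n = 3, against 2078 ± 143 CPM, n = 2), with a log2 fold change of 3.64 (SE 0.05, FDR = 5.26e-17). *MDM2*, the ubiquitin ligase that degrades p53, rose from 141 ± 5.95 to 1119 ± 160.3 CPM (log2 fold change 2.99). *PPM1D*, a phosphatase that counteracts p53 signaling, rose from 45.3 ± 1.25 to 182 ± 2.8 CPM, and *SESN2*, a stress-induced regulator of mTORC1, from 17.9 ± 0.624 to 81.0 ± 2.12 CPM. *BTG2*, an antiproliferative gene, rose by 2.35 on the log2 scale. *CCNG1*, encoding cyclin G1, was at 182 ± 0.799 CPM with DMSO and at 244 ± 38.7 CPM with 5-FU. Its log2 fold change of 0.42 passed the FDR but not the 1.5-fold limit. *KITLG*, the ligand of the KIT receptor, was the member called lower, with 1427 ± 43.7 CPM against 466 ± 65.7 CPM.

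The p53 consensus is a pair of decamers, each with a core of C, A or T at both inner positions, and G. Matches with both cores intact, no spacer and at most 2 mismatches at the 12 other positions were searched on both strands within 2500 bases of the annotated start of 12676 protein-coding genes (hg38, GENCODE release 44). The share of genes with a match was 2.31% of all genes, 2.02% of those not called, 1.64% of those called lower and 4.08% of those called higher. Among the genes called higher it was 3.07% at 1.5-fold to 2-fold, 3.47% at 2-fold to 4-fold, 5.97% at 4-fold to 8-fold and 8.87% above 8-fold. Of the p53 feedback and arrest list, 7 of 25 genes searched held a match. The following sites, in capitals between 5 flanking bases on each side and read on the strand of the gene, belong to genes called higher, and the last of them had 0 mismatches.
CDKN1A, chr6:36676449-36676468, at -2256 bases from the start: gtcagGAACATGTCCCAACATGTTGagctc
BTG2, chr1:203303642-203303661, at -1868 bases: gggtcACGCATGTTCAGGCATGCATggaat
FAS, chr10:88991309-88991328, at 520 bases: ctcctGGACAAGCCCTGACAAGCCAagcca
ZMAT3, chr3:179070188-179070207, at 1612 bases: tcataAAACAAGTCCAGACATGCCTaggca
A match describes the letters of the genome and not a bound site.

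Cell death effectors linked to p53 were called higher in 19 of 26 cases and lower in 0, with a median log2 fold change of 1.04. *BBC3*, which encodes the BH3-only protein PUMA, was at 22.8, 20.6 and 23.8 CPM with DMSO and at 80.0 and 62.0 CPM with 5-FU. All values with 5-FU lay above those with DMSO, and the log2 fold change was 1.66 (SE 0.10, FDR = 8.17e-10). The death receptors *FAS* (17.5 ± 0.258 against 85.5 ± 8.95 CPM) and *TNFRSF10B* (153 ± 3.5 against 397 ± 9.05 CPM) rose as well. *TP53I3*, a p53-induced oxidoreductase, rose from 16.5 ± 0.406 to 282 ± 28.1 CPM. *EDA2R*, a receptor of the TNF family, had 0 counts in the DMSO libraries and reached 0.518 and 0.548 CPM. In the BCL2 family 5 of 15 members were called higher and 0 lower. *BAX*, which permeabilizes mitochondria, rose by 1.68 on the log2 scale, and the antiapoptotic *BCL2L1* by 0.98. The antiapoptotic *BCL2* was at 3.68, 4.10 and 3.85 CPM with DMSO and at 2.49 and 2.74 CPM with 5-FU, without overlap, but its log2 fold change of -0.57 (FDR = 0.00329) was within the 1.5-fold limit.

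Among p53 targets of repair and metabolism, 12 of 22 were called higher and 1 lower. *XPC*, a sensor of nucleotide excision repair, was at 75.6, 73.2 and 76.4 CPM with DMSO and at 160.0 and 155 CPM with 5-FU (log2 fold change 1.07, SE 0.05). *FDXR*, an enzyme of mitochondrial electron transfer, rose by 2.27 on the log2 scale and *PRODH*, a proline-degrading enzyme, by 3.09. *RRM2B*, the p53-induced subunit of ribonucleotide reductase, rose from 123 ± 1.42 to 362 ± 69.9 CPM. *PCNA*, the sliding clamp of DNA polymerase, was at 322 ± 11.3 and 423 ± 3.9 CPM, a log2 fold change of 0.40 that was within the 1.5-fold limit.

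**Figure D1:**
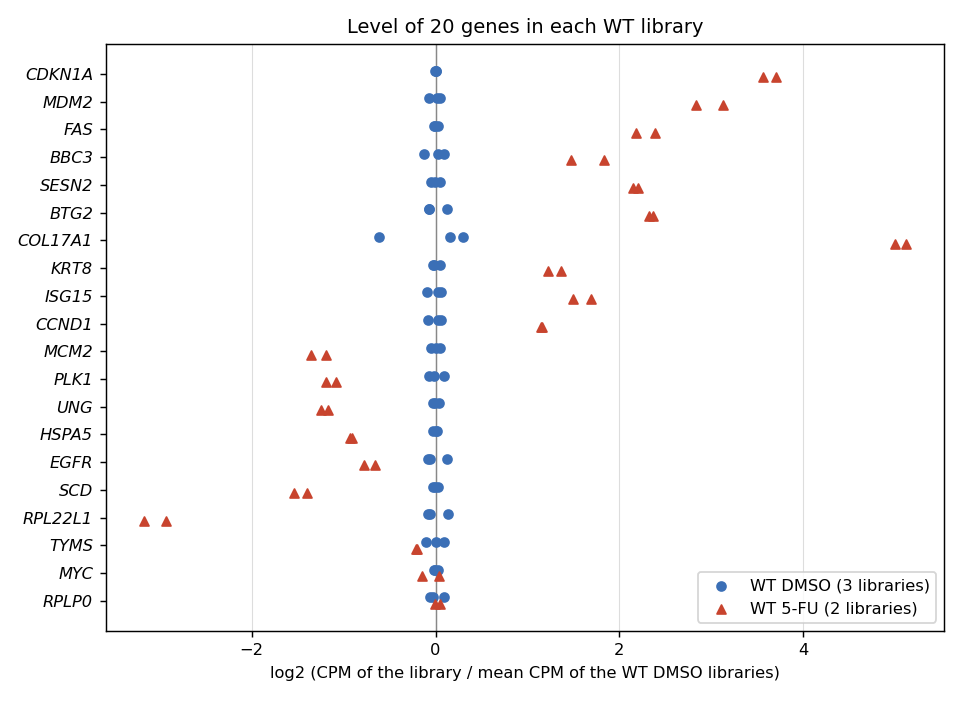
Level of 20 genes in each *WT* library, as the log2 ratio of its CPM to the mean of the DMSO libraries (x axis), for 3 DMSO libraries (circles) and 2 5-FU libraries (triangles). *CDKN1A* and *COL17A1* lie far to the right and *RPL22L1* far to the left, whereas the 5-FU values of *MYC* and *RPLP0* lie among or next to those of DMSO.

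Genes of origin licensing and DNA replication fell. Of 51 tested, 35 were called lower and 0 higher, with a median log2 fold change of -0.80. *MCM2*, a subunit of the replicative helicase, was at 268, 278 and 258 CPM with DMSO and at 117 and 105 CPM with 5-FU. Its log2 fold change was -1.27 (SE 0.06, FDR = 2.82e-11). The other helicase subunits *MCM3* to *MCM7* were called lower too, *MCM6* by -1.35, *MCM4* by -1.14, *MCM7* by -1.13, *MCM5* by -1.10 and *MCM3* by -1.07 on the log2 scale. *POLE2*, a subunit of DNA polymerase epsilon, showed the largest decrease of the list (-1.40), and the loading factor *CDC6* fell by 0.59 on the log2 scale. Among cyclins and E2F factors of the G1/S transition, 7 of 35 were called lower and 4 higher. *E2F1* fell from 47.0 ± 1.43 to 25.7 ± 4.68 CPM and *CCNE2*, encoding cyclin E2, from 22.7 ± 0.498 to 9.96 ± 1.52 CPM, whereas *CDKN1A* was among the 4 called higher. *CDK1* was at 167, 178 and 165 CPM with DMSO and at 129.7 and 172 CPM with 5-FU. Its states overlapped (log2 fold change -0.17, FDR = 0.0834).

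Mitosis and spindle genes fell as well, 49 of 75 members being called lower and 0 higher, with a median log2 fold change of -0.73. With the GC trend removed 37 were called lower. *PLK1*, a mitotic kinase, was at 150.3, 162 and 145 CPM with DMSO and at 71.7 and 66.7 CPM with 5-FU (log2 fold change -1.14, SE 0.06). *CCNB1*, encoding cyclin B1, fell from 257 ± 18.6 to 139 ± 12 CPM, and the checkpoint kinase *BUB1* fell by 1.0 and the centromere histone *CENPA* by 0.81 on the log2 scale. *ARHGAP11A*, a GTPase-activating protein, had the largest decrease of the list (-1.32). *PLK4*, the kinase of centriole duplication, was among the 10 largest decreases of genes at 10 CPM or more, with 51.6 ± 2.53 CPM against 13.9 ± 1.78 CPM.

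Promoter windows of RefSeq (GRCh38.p14, 250 bases before to 50 bases after a start, several windows for some genes) were available for 11177 of the tested genes. The CHR words TTTGAA and TTCGAA were found on either strand in windows of 15.2% of these genes, and of 51 of 65 mitosis genes (78.5%) but 3 of 44 replication genes (6.82%). The E2F words TTTCGCGC, TTTGGCGC and TTTCCCGC were found in 5.44% of all, in 22 of 44 replication genes (50%) and in 5 of 65 mitosis genes (7.69%). Of all genes called lower, 21.3% held a CHR word and 9.48% an E2F word, and of all called higher 14.8% and 3.19%. CCAAT was found in 43.0% of all genes and in 78.5% of mitosis genes. None of these words contains another. The following stretches of 30 bases, with the word in capitals and on the strand of the gene, are shown for genes described above, the first 4 with a CHR word and the last 4 with an E2F word.
PLK1, chr16:23678848-23678877: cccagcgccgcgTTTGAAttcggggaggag
BUB1, chr2:110678045-110678074: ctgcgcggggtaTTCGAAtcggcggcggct
CENPA, chr2:26786026-26786055: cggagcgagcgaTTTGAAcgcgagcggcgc
CCNB2, chr15:59105105-59105134: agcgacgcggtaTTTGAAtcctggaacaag
MCM2, chr3:127598402-127598431: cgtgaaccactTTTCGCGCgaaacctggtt
MCM3, chr6:52284728-52284757: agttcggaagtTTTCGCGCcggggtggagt
CDC6, chr17:40287875-40287904: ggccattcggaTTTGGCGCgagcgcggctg
E2F1, chr20:33686387-33686416: ggcaaaaaggaTTTGGCGCgtaaaagtggc
*CCNB2*, encoding cyclin B2, fell by 0.93 on the log2 scale. A word found in a window is a description of its letters.

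Genes around the targets and the metabolism of 5-FU were divided. Of 41 genes of thymidylate, folate and dNTP synthesis, 2 were called higher and 5 lower (3 with the GC trend removed), with a median of -0.18. The calls were 4.88% and 12.2%, against 18.5% and 9.38% of all genes. *TYMS*, which encodes thymidylate synthase, the enzyme blocked by 5-FU, was at 281, 299 and 262 CPM with DMSO and at 243 and 244 CPM with 5-FU. The values did not overlap, and the log2 fold change of -0.20 (FDR = 0.00967) was within the 1.5-fold limit. *DUT*, the dUTPase that keeps uracil out of DNA, fell from 100.3 ± 7.68 to 49.4 ± 3.23 CPM. *TK1* (log2 fold change 0.05) and *RRM2* (-0.08) were not called. Of 24 genes of 5-FU activation and breakdown, 6 (25%) were called higher and 5 (20.8%) lower. *TYMP*, a phosphorylase that activates 5-FU, was at 37.2, 38.7 and 35.8 CPM with DMSO and at 38.9 and 32.0 CPM with 5-FU, with overlapping states. *UPP1*, uridine phosphorylase, rose by 0.96 on the log2 scale, whereas *DPYD*, the enzyme that degrades 5-FU, fell by 0.84 from a low level (3.30 ± 0.0284 against 1.85 ± 0.342 CPM) and the nucleotidase *NT5M* by 1.29.

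Repair of uracil and of mismatches was represented by 28 genes, of which 9 were called lower and 2 higher. *UNG*, the glycosylase that removes uracil from DNA, was at 232, 224 and 221 CPM with DMSO and at 100.0 and 95.1 CPM with 5-FU (log2 fold change -1.21, SE 0.06). *MSH6*, a subunit of the mismatch sensor, fell by 1.22 on the log2 scale. Of 46 genes of homologous recombination and the Fanconi pathway, 17 were called lower and 0 higher, but 10 lower with the GC trend removed, when 1 was called higher. *BRCA1* was at 73.3, 77.7 and 71.6 CPM with DMSO and at 45 and 44.5 CPM with 5-FU (log2 fold change -0.73, SE 0.06). The checkpoint kinase *CHEK1* fell by 1.25 on the log2 scale.

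Of 40 genes of the ATF4 amino acid response, 15 were called higher and 1 lower. *ATF3* was at 14.8, 12.9 and 13.9 CPM with DMSO and at 74.0 and 74.2 CPM with 5-FU, clearly apart (log2 fold change 2.42, SE 0.07). *ASNS*, asparagine synthetase, rose from 97.7 ± 12.8 to 164 ± 28.2 CPM. *CBS*, an enzyme of cysteine synthesis, was at 0.106 ± 0.0958 CPM with DMSO and at 5.34 and 2.43 CPM with 5-FU. Of 38 genes of chaperones and protein degradation of the endoplasmic reticulum, 8 were called lower, 2 higher and 28 neither. *HSPA5*, encoding the chaperone BiP, was at 973, 981 and 949 CPM with DMSO and at 508 and 517 CPM with 5-FU (log2 fold change -0.92, SE 0.04). *MANF*, a secreted protein of this compartment, fell by 1.46 and the transcription factor *XBP1* by 0.75 on the log2 scale.

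Cholesterol and fatty acid synthesis fell in part, with 11 of 43 genes called lower and 1 higher. *HMGCS1*, an enzyme of the early mevalonate pathway, was at 129, 119 and 125 CPM with DMSO and at 63.6 and 79.5 CPM with 5-FU (log2 fold change -0.80, SE 0.07). *SCD*, the desaturase of fatty acids, was among the 5 largest losses in CPM of the genes called, from 2622 ± 44.2 to 945 ± 64.9 CPM, and the sterol sensor partner *INSIG1* fell by 1.99 on the log2 scale. *ABCA1*, which exports cholesterol, was the gene called higher (3.01). *FASN*, fatty acid synthase, was not called (-0.04).

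Genes of the translation machinery changed little as groups. Of all genes 18.5% were called higher and 9.38% lower. Of 83 cytoplasmic ribosomal proteins and their paralogs 1 was called higher and 3 lower (1.20% and 3.61%). Of 95 genes of rRNA synthesis and processing, 2 (2.11%) were called higher and 8 (8.42%) lower. The latter count was 5 without 5-FU replicate 2, 13 without replicate 3 and 4 with the GC trend removed. *RPLP0* was at 3194, 3482 and 3124 CPM with DMSO and at 3371 and 3259 CPM with 5-FU, with overlapping states (log2 fold change 0.02). *RPL22L1*, a paralog of *RPL22*, was at 202, 236 and 205 CPM with DMSO and at 23.7 and 28.1 CPM with 5-FU. This was the largest decrease among genes at 10 CPM or more (log2 fold change -3.05, SE 0.11, FDR = 8.39e-13). *RPL3* fell from 2810.3 ± 28.0 to 1441 ± 8.37 CPM, and the paralog *RPS27L*, a p53 target, rose by 1.75 on the log2 scale. *NPM1*, a nucleolar chaperone, fell by 0.80. *POLR1A*, the catalytic subunit of RNA polymerase I, was at 87.2 ± 2.31 and 123 ± 4.11 CPM and its log2 fold change of 0.49 was within the 1.5-fold limit. Of 76 respiratory chain subunits, 3 were called lower and 0 higher. *NDUFA4* had overlapping states (log2 fold change -0.06).

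Interferon-stimulated and antigen presentation genes were called higher in 18 of 55 cases and lower in 1. *ISG15*, a ubiquitin-like modifier, was at 74.2, 76.1 and 68.1 CPM with DMSO and at 235 and 205 CPM with 5-FU (log2 fold change 1.60, SE 0.07). *TAP1*, which transports peptides for MHC class I, rose by 1.24, *IFIT1* by 0.70 and *TRIM22*, which is also a p53 target, by 3.05 on the log2 scale. *B2M*, the light chain of MHC class I, was not called (-0.24). Of 6 APOBEC3 cytidine deaminases tested, 4 were called higher. *APOBEC3B* was at 31.0, 34.6 and 29.7 CPM with DMSO and at 129 and 122 CPM with 5-FU (log2 fold change 1.99), and *APOBEC3D* rose by 3.42. The APOBEC3 genes share sequence, so that reads may be split among them.

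Epithelial genes rose more often than they fell. Of 54 genes of junctions and keratins, 17 were called higher and 1 lower. *CDH1*, encoding E-cadherin, was at 127, 121 and 132 CPM with DMSO and at 208 and 205 CPM with 5-FU (log2 fold change 0.70, SE 0.05). *KRT8*, *KRT18* and *KRT19*, the keratins of simple epithelia, were among the 5 largest gains in CPM of the genes called. They rose from 2366 ± 73.9 to 5817 ± 392, from 1382 ± 18.4 to 2999 ± 99.8 and from 1052 ± 58.5 to 2281 ± 278 CPM. The annotated *KRT8* (chr12:52897187-52949954) and *KRT18* (chr12:52948871-52952906) overlap on opposite strands. *EPCAM* (log2 fold change -0.39) and *CLDN4* (0.48) were not called, and *CLDN2* fell by 2.08. Of 24 laminins, integrins and genes of the hemidesmosome, the structure that anchors epithelial cells to the basement membrane, 12 were called higher and 0 lower. *LAMB3* was at 35.7, 33.4 and 39.9 CPM with DMSO and at 173 and 159.8 CPM with 5-FU. *ITGB4* rose from 609.8 ± 35.0 to 1758 ± 186 CPM and *COL17A1*, a collagen of the hemidesmosome, from 2.78 ± 0.856 to 92.8 ± 5.78 CPM (log2 fold change 5.03, SE 0.13).

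Mesenchymal markers and EMT factors went both ways, 17 of 33 being called higher and 5 lower, and 3 lower without either 5-FU library. *SNAI1*, encoding SNAIL, was at 7.94, 8.69 and 8.77 CPM with DMSO and at 5.8 and 5.28 CPM with 5-FU (log2 fold change -0.61, SE 0.11). *FN1*, encoding fibronectin, rose by 1.21 on the log2 scale. *COL4A1*, a basement membrane collagen, had the largest increase of the list (4.43), from a low level (0.0747 ± 0.0648 against 1.85 ± 0.242 CPM). With both 5-FU libraries, 51.5% of the list were called higher and 15.2% lower, against 18.5% and 9.38% of all genes. The median log2 fold change of the list was 0.60. *VIM* (-0.52) and *ZEB1* (-0.49) were not called. Of 25 genes used as markers of other cell types only 9 passed the filter on low counts. Of these 8 were called higher, led by *ITGAM* (0.412 against 5.8 CPM), and 6 with the GC trend removed. *ITGAM* had 10, 8 and 18 counts in the DMSO libraries and 261 and 141 with 5-FU. Of 38 genes of gut differentiation only 10 passed this filter, of which 5 were called higher. A gene near 0 with DMSO could be tested in either list through 5-FU alone, so that neither count is support for a rise. *KRT20* was at 6.24, 5.82 and 7.47 CPM with DMSO and at 7.18 and 6.07 CPM with 5-FU, with overlapping states. *MUC2*, a mucin, was at 0.503 ± 0.13 CPM with DMSO and at 9.54 and 5.28 CPM with 5-FU.

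Growth factor signaling genes were divided. Of 37 genes of the EGFR family and ERK feedback, 10 were called higher and 7 lower. *EGFR* was at 143, 141 and 162 CPM with DMSO and at 86.5 and 93.8 CPM with 5-FU (log2 fold change -0.72, SE 0.07). Among its ligands, *EREG* fell from 906 ± 31.9 to 266 ± 47.5 CPM and *HBEGF* rose from 5.73 ± 0.482 to 17.5 ± 0.034 CPM, whereas *AREG* (139.7 ± 2.1 and 206 ± 8.02 CPM) was within the 1.5-fold limit. Of 33 immediate early genes, 12 were called higher and 6 lower. *FOS* was at 10.3, 13.9 and 12.8 CPM with DMSO and at 5.31 and 6.20 CPM with 5-FU, and *EGR1* fell by 1.29 on the log2 scale, whereas *CCN1*, a matricellular protein, rose by 2.64.

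Among other signaling lists, of 25 Wnt targets 5 were called higher and 1 lower, and 3 higher and 3 lower without 5-FU replicate 2 or with the GC trend removed. *CCND1*, encoding cyclin D1, was at 757, 705 and 774 CPM with DMSO and at 1649 and 1659.7 CPM with 5-FU (log2 fold change 1.15, SE 0.05). Of 30 genes of TGF-beta and BMP feedback, 11 were called higher and 1 lower. *SMAD7*, an inhibitor of TGF-beta signaling, was at 4.62, 2.91 and 4.29 CPM with DMSO and at 9.72 and 9.43 CPM with 5-FU, and *ID1*, a BMP target, fell by 1.14 on the log2 scale. Of 29 NF-kB targets, 12 were called higher and 2 lower, and 8 higher without 5-FU replicate 2. *NFKBIA*, the inhibitor and classical target of NF-kB, was at 35.6, 36.1 and 36.4 CPM with DMSO and at 33.5 and 32.2 CPM with 5-FU (log2 fold change -0.13, FDR = 0.159). *ICAM1*, an adhesion molecule, rose by 4.35 from a low level (0.186 ± 0.134 CPM). Of 14 genes of the MYC network, 4 were called higher and 0 lower, and 1 higher with the GC trend removed. *MYC* was at 453, 455 and 468 CPM with DMSO and at 473 and 414 CPM with 5-FU, with overlapping states.

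Of 59 genes of autophagy and the lysosome, 9 were called higher and 3 lower, 15.3% and 5.08%, against 18.5% and 9.38% of all genes. *ATG9A*, a lipid scramblase of autophagosome formation, was at 73.3, 70.6 and 68.7 CPM with DMSO and at 72.2 and 61.8 CPM with 5-FU, with overlapping states (log2 fold change -0.08). *ATG16L2* showed the largest change (1.5). *MAP1LC3B* (0.37) and *SQSTM1* (0.31) were within the 1.5-fold limit. Of 16 long noncoding RNAs linked to p53, 8 were called higher and 0 lower. *MIR34AHG*, the host gene of miR-34a, was at 4.69, 4.46 and 5.36 CPM with DMSO and at 17 and 15.4 CPM with 5-FU (log2 fold change 1.73, SE 0.09). *PURPL* was at 0.0414 ± 0.0444 CPM with DMSO and at 2.21 ± 0.456 CPM with 5-FU. *DINOL*, which lies antisense to *CDKN1A*, had 0 counts with DMSO. Whether the counting used the strand is not given in the sources used here, so that its reads cannot be told apart from those of *CDKN1A*. Of 63 clustered histone genes only 14 passed the filter. Of these 5 were called higher and 1 lower, and 3 higher without 5-FU replicate 2 and 1 with the GC trend removed. *H1-2* had overlapping states, and *H2AC18*, called lower, had 43, 0 and 80 counts in the DMSO libraries and 0 with 5-FU. *H2AC18* has a near-identical copy, so that its value is uncertain.

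The 10 largest increases among genes at 10 CPM or more with 5-FU were those of *ANXA8*, *SORCS2*, *COL17A1*, *XDH*, *SYT8*, *KRT81*, *PLA2G4D*, *KIAA1324*, *ABCA12* and *MYH16*. *ANXA8*, an annexin with near-identical copies in the genome, was at 0.289, 0.132 and 0.261 CPM with DMSO and at 19.5 and 16.7 CPM with 5-FU (log2 fold change 6.24, SE 0.20). *SORCS2*, a receptor of the sortilin family, rose from 0.616 ± 0.135 to 27.8 ± 4.23 CPM and *XDH*, xanthine dehydrogenase of purine breakdown, from 0.529 ± 0.259 to 18.5 ± 1.39 CPM. The hair keratin *KRT81* rose from 1.39 ± 0.62 to 33.9 ± 0.376 CPM. The 10 largest decreases were those of *RPL22L1*, *PRKACB*, *DLEU2*, *INSIG1*, *RGS2*, *PLK4*, *SESTD1*, *NR2F1*, *L3MBTL3* and *EREG*. *PRKACB*, a catalytic subunit of protein kinase A, was at 145, 149.9 and 152 CPM with DMSO and at 30.2 and 35.8 CPM with 5-FU (log2 fold change -2.18, SE 0.07). *RGS2*, a regulator of G protein signaling, fell by 1.95 and the nuclear receptor *NR2F1* by 1.82 on the log2 scale. By CPM, *CDKN1A* and *FTH1*, the heavy chain of ferritin (1549 ± 79.0 against 2723 ± 260.0 CPM), joined the keratins among the 5 largest gains. The 5 largest losses among genes called were those of *ACTG1* (5268 ± 71.5 against 3228 ± 339 CPM), *HSP90AB1*, *SCD*, *PTMA* and *RPL3*. *EEF1A1*, a translation elongation factor, lost more CPM than these, but its log2 fold change of -0.43 was within the 1.5-fold limit. Processed pseudogenes of *ACTG1*, *PTMA*, *RPL3* and *FTH1* share sequence with them.

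By mean level, 13.7% of genes at 10 to 30 CPM, 10.4% at 30 to 100 CPM and 9.32% above 100 CPM were called higher, and 12.3%, 9.26% and 10.1% lower. Below 10 CPM more genes were called higher (26.4% at 3 to 10, 34.3% at 1 to 3 and 33.6% below 1 CPM). A gene with fewer than 20 counts in each DMSO library could pass the filter through 5-FU alone. How many genes of each class did so was not counted, and the cause of the larger shares was not tested. Among protein-coding genes 16.2% were called higher and 10.1% lower (n = 13111), and among lncRNAs 28.7% and 7.42% (n = 728). At 1 to 10 CPM these shares of increases were 29.1% for protein-coding genes and 31.2% for lncRNAs. In the GC-poorest quintile of protein-coding genes above 3 CPM, 3.79% were called higher and 20.9% lower. In the GC-richest quintile it was 23.6% and 3.49%.

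The 5-FU response of *WT* cells was compared with that of *miR-34a/b/c-KO* cells by testing the interaction. The response was more positive in *WT* cells for 1073 genes (6.66% of those tested) and more negative for 551 (3.42%). With TMM factors it was 844 and 676 and with DESeq2 674 and 703, so that the balance depended on the scaling. With the GC trend removed it was 931 and 617. Of the replication genes, 33 of 51 had a more negative response in *WT* cells and 0 a more positive one. Their median log2 fold change was -0.80 in *WT* and 0.05 in KO cells. Of the mitosis genes it was 22 and 1 of 75, with medians of -0.73 and -0.23, and of homologous recombination and the Fanconi pathway 23 and 0 of 46. Of the ATF4 genes 19 of 40 responded more positively in *WT* cells and 0 more negatively. In the p53 feedback and arrest list it was 5 and 1 of 26, with medians of 2.14 and 1.97. These counts by list were not repeated with the GC trend removed. Median transcript GC was 45.9% in the replication, 43.5% in the mitosis and 42.8% in the recombination and Fanconi list. It was 52.8% in the ATF4 and 45.3% in the p53 list, against 48.8% of protein-coding genes above 3 CPM. *CDKN1A* rose by 3.64 in *WT* and 2.40 in KO cells, with a difference of 1.24 (SE 0.07, FDR = 1.41e-08). *CCNE2* showed opposite directions, -1.19 in *WT* and 1.62 in KO cells, with a difference of -2.81 (SE 0.12, FDR = 1.34e-09).

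**Figure D2:**
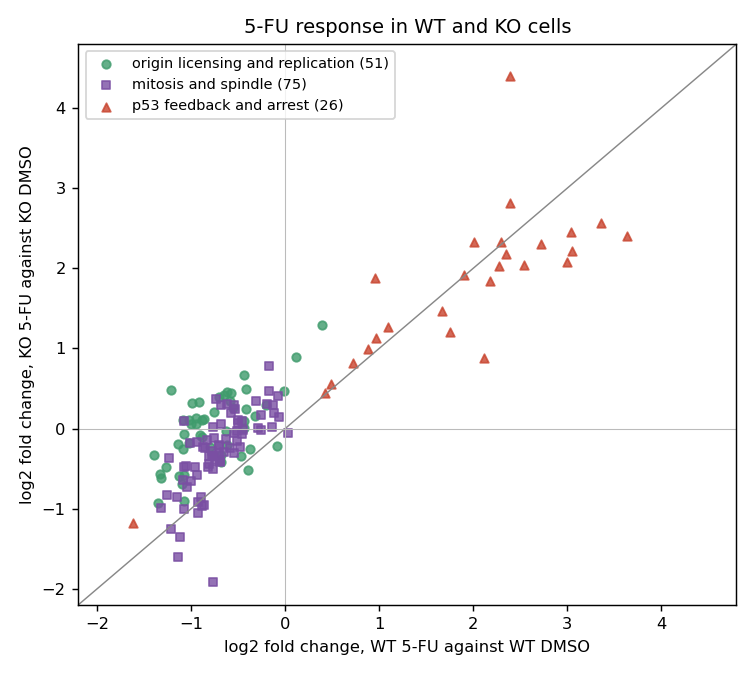
Log2 fold change after 5-FU, with *WT* cells on the x axis and *miR-34a/b/c-KO* cells on the y axis, of the replication (51), mitosis (75) and p53 feedback and arrest (26) genes, with the diagonal of equal response. Most replication and mitosis genes lie above the diagonal, with medians of -0.80 and -0.73 in *WT* and 0.05 and -0.23 in KO cells.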

How the data were processed

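RNA of HCT116 cells was sequenced by the authors (random-primed cDNA, paired-end), mapped by CLC Genomics Workbench to GRCh38 with ENSEMBL genes. The values deposited by the authors are raw counts per gene symbol, without filter or normalization (60580 genes per library). Titles gave the state of each sample. Kept were 16123 genes that reached 20 counts in 1 or more of 11 libraries. They were scaled with upper-quartile factors and fitted with edgeR 4.0.16 (glmQLFit, legacy option, and glmQLFTest, two-sided, R 4.3.3) in 1 model with a mean per state (7 residual degrees of freedom), so that *WT* 5-FU with 2 libraries shared the spread of all states. P-values were adjusted by Benjamini-Hochberg over all genes (FDR). A call needed FDR < 0.05 and a fold change > 1.5. CPM rest on scaled totals and log2 CPM on a prior count of 2. The number of libraries limits the precision, and below 1 CPM so does the number of counts. The fit was tested on simulated data.

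The comparison, gene lists and rule for named genes were chosen with earlier results of these data known. Named were the anchors of 33 lists, in each list the called member with the largest change and at least 1 CPM in 1 of the *WT* states, the 10 largest increases and decreases among called genes at 10 CPM or more without overlap, and the 5 largest gains and losses in CPM. *CCNB2*, *CLDN2*, *DINOL*, *EDA2R*, *EEF1A1*, *KITLG*, *MCM3* to *MCM7* and *ZMAT3* were named beyond this rule, after their values were seen. Some genes of the rule and lists are not reported here. Positions and transcript GC are from GENCODE release 44 (87.7% of the tested genes matched by symbol). Tried as alternatives were 1 RUVg factor within edgeR, and DESeq2 1.42.0 with its own scaling and without RUVg. Neither repeats the authors' step, which ran DESeq2 after RUVg with settings not given in the sources used here. Other alternatives were TMM factors, other filters, a replicate block, thinned counts and leaving out each library.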

Additional observations from a re-analysis of the deposited data

Results flagged for a closer look

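The following genes are a part of those whose 5-FU response differed between genotypes in the interaction test, with FDR < 0.05 and a ratio above 1.5. Other named genes met the same limits, among them *CCNE2* (-2.81), *MCM10* (-1.31) and *TP53I3* (1.27). Values are the log2 fold change in *WT* minus that in *miR-34a/b/c-KO* (KO) cells. The response was more positive in *WT* cells for *KRT81* (3.18), *ANXA8* (1.63), *ABCA12* (1.36), *CDKN1A* (1.24), *MYH16* (1.14), *XDH* (1.09), *SORCS2* (0.90), *LAMB3* (0.88), *COL17A1* (0.84) and *SCD* (0.72). For *SCD* this means a smaller decrease in *WT* cells (-1.47 against -2.19). It was more negative in *WT* cells for *PLK4* (-1.20), *BRCA1* (-1.10), *BCL2* (-0.99), *CDK1* (-0.95), *EREG* (-0.92), *FOS* (-0.82), *MCM2* (-0.79) and *UNG* (-0.74). *BRCA1*, *BCL2* and *CDK1* had a positive log2 fold change in KO cells (0.37, 0.42 and 0.78).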

How the results depend on the processing

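The counts of 2978 genes called higher, 1512 called lower and 1624 with a different response in *miR-34a/b/c-KO* cells moved by more than 1.5 times under these settings. With at least 20 counts required in every library, which tests fewer genes, 1910 were called higher. Without a minimum fold change it was 5143 higher, 4569 lower and 4207 different, and with the fold change of 1.5 inside the test 1833, 740 and 289. With 1 RUVg factor it was 3, 0 and 885 (2737 genes at an unadjusted p under 0.05 for 5-FU in *WT* cells). With the library labelled as *WT* 5-FU replicate 1 kept under its label it was 0, 0 and 428 (6467 genes at an unadjusted p under 0.05, by edgeR). Leaving out each library in turn gave 2512 to 2989 higher, 1351 to 1860 lower and 1396 to 1972 different, with 2512 higher without 5-FU replicate 2 and 1860 lower without 5-FU replicate 3. With either of these left out, the lone *WT* 5-FU library was assumed to vary like the other states. Deviations of *WT* libraries with the same number correlated at 0.01 and -0.022. The deviations of the *WT* 5-FU libraries used mirror each other by construction, so that this cannot decide whether the numbers pair the samples. A replicate block gave 2901 higher and 1496 lower, with 1517 genes of different response, and 2760, 1483 and 1361 within genotype. Blocking by the numbers of the column headers, added after seeing the data, gave 2858, 1517 and 1521. Removing the GC trend, also added then, gave 2902 and 1238. Of 118 named genes called and reported, 80 lost the call with 1 RUVg factor and 37 changed direction, with log2 fold changes of *APOBEC3C* (-0.041), *APOBEC3D* (-1.44), *ARHGAP11A* (1.20), *BAX* (-2.67), *BBC3* (-3.36), *BCL2L1* (-0.67), *BUB1* (2.67), *CBS* (-6.36), *CCNB1* (0.85), *CCNE2* (1.15), *CENPA* (0.39), *COL4A1* (-2.09), *DLEU2* (1.83), *DPYD* (2.09), *EGR1* (0.75), *EREG* (0.89), *FDXR* (-0.20), *HMGCS1* (0.95), *HSP90AB1* (0.26), *ISG15* (-0.54), *ITGAM* (-0.78), *ITGB4* (-0.39), *KRT19* (-0.035), *MCM10* (0.64), *MSH6* (0.40), *MUC2* (-6.01), *MXD4* (-3.02), *NDUFB6* (1.28), *NPM1* (1.34), *NR4A1* (-2.25), *PLK4* (0.98), *POLE2* (0.27), *PVT1* (-0.51), *RBL1* (2.03), *SMAD7* (-1.84), *SYT8* (-0.39), *XBP1* (2.01), the cause of which was not tested. None of these 37 changes of direction had FDR < 0.05 with 1 RUVg factor. DESeq2 and TMM factors each changed the call of 1 named gene. Other settings changed more of the 164 named genes reported. With the GC trend removed 7 lost the call and 5 gained it. With the fold change of 1.5 inside the test 9 lost it. With 20 counts required in every library, 145 of the 164 had the same call. Depth limits genes below 1 CPM, whose values rest on few counts.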
